A study of Mus musculus with 30 samples.

Results

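The effect of TNF on gene expression was measured in mouse colonocytes that were also given TGFB1 and BMP2. The comparison sets 3 libraries of colonocytes treated with TNF, TGFB1 and BMP2 (the 3-ligand libraries) against 3 libraries of colonocytes treated with TGFB1 and BMP2 but without TNF, so 6 of the 30 libraries of the series and 6 of its 12 colonocyte libraries. They were chosen by their labels, and so both groups carry TGFB1 and BMP2 and differ by TNF. For comparison, 3 libraries of colonocytes given TNF and 3 untreated libraries show the TNF effect without TGFB1 and BMP2; the comparisons share no library. All 12 come from the strain labelled IMCfl/fl Smad4+, cultured cells whose Smad4 gene is labelled as present. Neither the doses nor the length of treatment is stated in the sources used here. Replicates of a condition are called biological by the submitters, without saying whether they came from separate cultures, so a p-value here covers the spread between these libraries, which may be technical in part. Whether the cells are 1 clone is not stated either.

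TNF is an inflammatory cytokine that binds the receptor Tnfrsf1a and, through a complex of Traf and Birc proteins, activates kinases that remove IkB inhibitors from NF-kB. Freed NF-kB dimers enter the nucleus and bind kB sites of chemokine, adhesion and survival genes, and of the genes of their own inhibitors, which close a negative feedback loop. TGFB1 and BMP2 signal through receptor kinases that phosphorylate separate SMAD proteins, which then share the partner Smad4. In the gut epithelium, BMP signalling is known for promoting differentiation, TGFB signalling for restraining growth and inflammation, and Ccl20 for drawing cells with the receptor Ccr6.

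Values are CPM, read counts scaled to a common library total, from 23.7 to 35.6 M reads over the listed genes of each 3-ligand library and 24.9 to 42.9 M in each TGFB1 and BMP2 library. Replicate 3 had the fewest reads in each of the 4 colonocyte groups. Of the 11502 genes listed for both groups, 11479 had a mean of at least 1 CPM and were tested with limma on log2(CPM + 1), a scale on which changes of weakly expressed genes come out too small. The adjusted p is Benjamini-Hochberg's over all genes tested, and a gene is said to rise or fall where it is below 0.05. The colonocyte label was set against marker genes. Of 20 markers of intestinal epithelium, 7 were listed for both groups (among them Krt8, Krt18 and Krt19), with a summed level of 105 to 118 CPM in the 3-ligand libraries, against 112 to 118 CPM with TGFB1 and BMP2. Epcam, Vil1, Cdx1, Cdx2 and Krt20 were not listed for either group, nor was any of the 10 markers of absorptive colonocytes or the 9 of goblet cells. Fibroblast and smooth muscle markers were listed for 11 of 14 genes and summed to 4246 to 4509 CPM in the 3-ligand libraries, against 4154 to 4559 CPM with TGFB1 and BMP2, led by Col1a1. The defining markers of colon epithelium were thus largely absent, and colonocyte is used here as the label of the samples. Of 15 leukocyte markers, 2 were listed, with a summed level of 32.6 to 37.1 CPM in the 3-ligand libraries, against 36.8 to 38.9 CPM with TGFB1 and BMP2. No marker of these kinds changed with TNF at the threshold, and 1 fibroblast and muscle marker rose with the replicate block.

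TNF changed 464 of the 11479 genes (4.04%) in the presence of TGFB1 and BMP2. Of these, 347 rose (3.02% of the genes tested) and 117 fell (1.02%). The rises were the larger, with a median size of 0.45 on the log2 scale and 41 genes at or above 1, while the falls had a median size of 0.32 and none reached 1. In 345 of the 347 rises and in all 117 falls the 2 groups did not overlap, which held for 19.5% of all genes tested. Libraries with the same replicate number deviated together. With the replicate number as a block 1335 genes passed (11.6%), 844 higher (7.35%) and 491 lower (4.28%), with all 464 among them. Calls and adjusted p given without mention of the block come from the fit without it, which ignores this pairing. A gene said not to pass may pass with the block. The list counts below are to be read against the shares of all genes tested given here. With plain read totals as the scaling, which moves the median change of all genes to -0.03 on the log2 scale, 287 rose and 162 fell. Without TGFB1 and BMP2 replicate 1 the number was 281 (247 higher and 34 lower), and without 3-ligand replicate 2 it was 282 (236 higher and 46 lower). The 12 largest rises and 12 largest falls were taken among called genes with a gene symbol and groups that do not overlap. For these genes, non-overlap follows from the choice and is not a result. In the other called genes it nearly always goes with the call, so where given below it describes the values and adds no support. The 12 largest rises and falls are named in the paragraphs on their groups, and their levels are plotted by library.

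**Figure D1:**
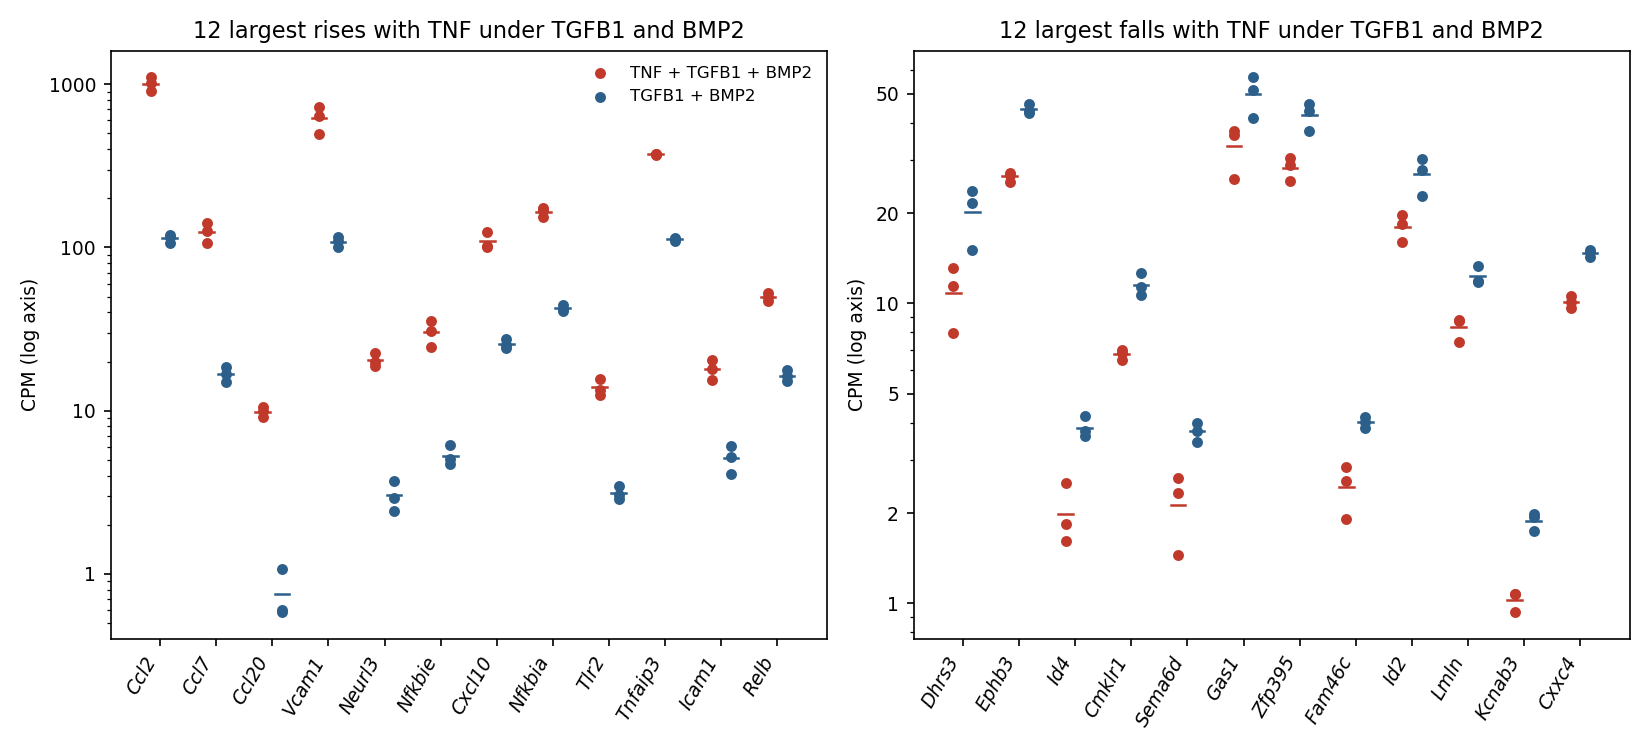
Level in CPM (log axis) of the 12 genes with the largest rise (left) and the 12 with the largest fall (right), in the 3-ligand libraries (red) and the TGFB1 and BMP2 libraries (blue); points are libraries and bars the means of 3. Genes were taken only where the groups do not overlap, and the steps at the left, up to 3.13 on the log2 scale, are larger than those at the right, up to 0.84.

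Chemokines held the 3 largest changes. Ccl2, a monocyte attractant, had 1099, 1018 and 903 CPM in the 3-ligand libraries, against 119, 117 and 106 CPM with TGFB1 and BMP2. It rose by 3.13 log2 units (SE 0.066, adjusted p = 3.75e-12). Ccl7, its neighbour in function on monocytes, had 126, 141 and 106 CPM, against 15.1, 18.6 and 16.8 CPM, and rose by 2.81 log2 units (SE 0.096, adjusted p = 5.59e-10). Ccl20 had 9.12, 10.6 and 9.91 CPM in the 3-ligand libraries, against 0.602, 0.584 and 1.07 CPM with TGFB1 and BMP2, and rose by 2.64 log2 units (SE 0.13, adjusted p = 3.18e-08). For each of the 3 genes the lowest 3-ligand library lay far above the highest TGFB1 and BMP2 library. The ratio of the mean CPM of Ccl20, which has no pseudocount in it, was 13.1 between the groups. Of the 8 CC chemokines tested, 4 rose and none fell, with a list median of 0.44, against -0.0035 for all genes tested. The other riser was Ccl5, a T cell attractant, with 15.7, 14.9 and 14 CPM, against 12.5, 11.1 and 9.48 CPM (log2 change 0.41, adjusted p = 0.0375), whose adjusted p was 0.0911 to 0.146 without 3-ligand replicate 1 or 2 or TGFB1 and BMP2 replicate 2 or 3 and 0.051 with plain read totals as the scaling.

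Of 5 CXC and CX3C chemokines tested, 3 rose and 1 fell. Cxcl10, which attracts T cells through Cxcr3, had 100.3, 124 and 103 CPM in the 3-ligand libraries, against 24.2, 25.3 and 27.6 CPM with TGFB1 and BMP2, and rose by 2.04 log2 units (SE 0.08, adjusted p = 2.83e-09). Cx3cl1, a membrane-bound chemokine, had 28.6, 27.8 and 24.7 CPM, against 10.6, 9.56 and 9.40 CPM, and rose by 1.37 log2 units (SE 0.085, adjusted p = 2.82e-07). Cxcl16, a further membrane-bound chemokine, had 92.6, 95.4 and 82.7 CPM, against 48.9, 47.4 and 42.1 CPM, and rose by 0.95 log2 units (SE 0.07, adjusted p = 1.61e-06). The libraries of the 2 groups stood apart in all 3, with every 3-ligand value the higher. Cxcl12, the ligand of Cxcr4, ran the other way, with 13.6, 11.8 and 12.5 CPM, against 15.7, 16.5 and 19.1 CPM (log2 change -0.40, adjusted p = 0.0229). Its adjusted p was 0.0552 to 0.118 without 3-ligand replicate 2 or TGFB1 and BMP2 replicate 2 or 3, and 0.0659 in the fit over all 12 colonocyte libraries. The neutrophil chemokines Cxcl1, Cxcl2 and Cxcl5 were not listed for either group.

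Several feedback inhibitors of NF-kB rose. Of 13 tested, 7 rose and none fell, and the list median was 0.57. Nfkbia, the classical IkB, had 168, 174 and 154 CPM in the 3-ligand libraries, against 42.1, 44.7 and 40.5 CPM with TGFB1 and BMP2, and rose by 1.94 log2 units (SE 0.059, adjusted p = 1.55e-10). Nfkbie, the epsilon form of IkB, had 30.7, 35.3 and 24.5 CPM, against 4.70, 6.13 and 5.04 CPM, and rose by 2.30 log2 units (SE 0.12, adjusted p = 6.42e-08). Tnfaip3, the ubiquitin-editing enzyme A20, had 374, 373 and 367 CPM, against 113, 109 and 114 CPM, and rose by 1.72 log2 units (SE 0.043, adjusted p = 1.84e-11). Their 3-ligand values were each at least 3 times the highest value with TGFB1 and BMP2. Tnip3 (log2 change 1.28, adjusted p = 6.92e-05) and Tnip1 (log2 change 0.71, adjusted p = 5.08e-05), which are partners of A20, rose as well, as did the RNase Zc3h12a (log2 change 0.66, adjusted p = 3.28e-05) and the beta form of IkB, Nfkbib (log2 change 0.52, adjusted p = 0.0104). The deubiquitinase Cyld (log2 change 0.083, SE 0.05, adjusted p = 0.497) did not pass, nor did the atypical IkB gene Nfkbiz (log2 change 0.031, SE 0.099, adjusted p = 0.934).

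Among the 12 NF-kB subunits and activating kinases tested, 6 rose and none fell, with a list median of 0.34. Relb, the subunit of the alternative pathway, had 52.8, 49.5 and 46.8 CPM in the 3-ligand libraries, against 17.7, 15.1 and 16.3 CPM with TGFB1 and BMP2, and rose by 1.55 log2 units (SE 0.075, adjusted p = 2.45e-08). Ikbke, an IkB kinase homologue, had 49.4, 49.3 and 51.0 CPM, against 24.3, 21.7 and 23.7 CPM, and rose by 1.07 log2 units (SE 0.065, adjusted p = 2.06e-07). Nfkb2, the precursor of p52, had 222, 218 and 214 CPM, against 123, 115 and 125 CPM, and rose by 0.85 log2 units (SE 0.047, adjusted p = 9.32e-08). All 3 genes had their 3-ligand libraries wholly above the others. Nfkb1 (log2 change 0.69, adjusted p = 1.09e-06) and Rela (log2 change 0.40, adjusted p = 0.000645), the subunits of the classical dimer, rose by less, and the kinase gene Map3k8 (log2 change 0.53, adjusted p = 0.0153) lost its call without TGFB1 and BMP2 replicate 1 or 3 or 3-ligand replicate 1 or 2 (adjusted p 0.0507 to 0.0662). The kinases that receive the receptor signal, Ikbkb (log2 change 0.095, SE 0.055, adjusted p = 0.471), Chuk (log2 change -0.029, SE 0.053, adjusted p = 0.862) and Ikbkg (log2 change -0.16, SE 0.075, adjusted p = 0.362), did not pass.

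Promoters of these genes were read from RefSeq's GRCm38.p6 table, from 250 bases before to 50 bases after the start site. Sequence is shown for 5 of the largest rises, since they hold the kB consensus, the sequence that NF-kB dimers bind. It was searched on both strands with overlaps allowed, and its matches are in capitals. Other sites are left in lower case, such as gaaagtgaaa of Cxcl10, which matches the GAAANNGAAA core treated below. The promoter of Ccl20 lies at chr1:83116516-83116815 (plus strand), that of Nfkbia at chr12:55492598-55492897 (minus strand), that of Nfkbie at chr17:45555450-45555749 (plus strand), that of Cxcl10 at chr5:92348840-92349139 (minus strand) and that of Tnfaip3 at chr10:19015361-19015660 (minus strand).
Ccl20: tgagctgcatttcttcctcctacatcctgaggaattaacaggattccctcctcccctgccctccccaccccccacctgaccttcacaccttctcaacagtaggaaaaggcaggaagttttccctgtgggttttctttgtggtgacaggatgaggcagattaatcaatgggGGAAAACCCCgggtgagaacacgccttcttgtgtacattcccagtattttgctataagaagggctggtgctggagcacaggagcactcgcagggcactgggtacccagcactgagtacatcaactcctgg
Nfkbia: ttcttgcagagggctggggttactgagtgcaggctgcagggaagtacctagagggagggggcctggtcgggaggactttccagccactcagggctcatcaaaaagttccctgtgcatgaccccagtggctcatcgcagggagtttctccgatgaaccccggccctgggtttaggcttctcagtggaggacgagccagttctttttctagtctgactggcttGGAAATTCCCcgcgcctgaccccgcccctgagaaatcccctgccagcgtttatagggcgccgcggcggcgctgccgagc
Nfkbie: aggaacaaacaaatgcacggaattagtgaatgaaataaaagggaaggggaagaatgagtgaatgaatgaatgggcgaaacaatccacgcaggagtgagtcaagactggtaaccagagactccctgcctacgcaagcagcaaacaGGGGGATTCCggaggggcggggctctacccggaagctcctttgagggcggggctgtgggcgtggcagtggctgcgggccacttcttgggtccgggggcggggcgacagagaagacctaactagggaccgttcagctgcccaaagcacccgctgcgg
Cxcl10: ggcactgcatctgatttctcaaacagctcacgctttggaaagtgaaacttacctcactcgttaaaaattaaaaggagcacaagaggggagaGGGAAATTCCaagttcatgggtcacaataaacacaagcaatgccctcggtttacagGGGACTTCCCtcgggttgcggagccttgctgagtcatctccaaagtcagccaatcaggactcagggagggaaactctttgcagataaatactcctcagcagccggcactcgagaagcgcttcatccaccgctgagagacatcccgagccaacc
Tnfaip3: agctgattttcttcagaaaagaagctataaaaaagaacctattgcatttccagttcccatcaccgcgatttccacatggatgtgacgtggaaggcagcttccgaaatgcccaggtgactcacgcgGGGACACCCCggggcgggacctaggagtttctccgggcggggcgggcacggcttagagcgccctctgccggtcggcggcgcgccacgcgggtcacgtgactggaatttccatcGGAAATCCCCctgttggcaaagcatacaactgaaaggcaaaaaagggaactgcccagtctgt
The kB match began 80 bases before the start site of Ccl20, 29 before that of Nfkbia and 106 before that of Nfkbie. Cxcl10 held kB matches that began 159 and 103 bases before its start site, and Tnfaip3 at 125 and 12 bases. The table holds a further entry for Tnfaip3, at chr10:19011914-19012213 (minus strand), in which no match was found. A gene is counted as holding a match where any of its entries does. Of the 12 largest rises, 8 had an entry in the table and 7 of these held a match, the exception being Icam1. Of the 12 largest falls, 9 had an entry and none held a match. A match was present in 53 of the 241 rising genes with an entry (22%) and in 5 of the 88 falling genes (5.68%), against 550 of the 8745 tested genes with an entry (6.29%) and 5.14% of all genes in the table. A match describes the letters of this window only, and binding was not measured. Ccl20 itself spans chr1:83116766-83119167 and Nfkbia spans chr12:55489410-55492647 in the GENCODE M21 annotation of GRCm38, both as protein-coding genes.

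Vcam1 and Icam1, a pair of adhesion genes, were among the 12 largest rises. Vcam1, the ligand of integrin alpha4beta1 on leukocytes, had 643, 721 and 496 CPM in the 3-ligand libraries, against 109, 116 and 101 CPM with TGFB1 and BMP2, and rose by 2.49 log2 units (SE 0.10, adjusted p = 3.91e-09). Icam1, the ligand of LFA-1, had 18.1, 20.5 and 15.3 CPM, against 6.09, 4.08 and 5.24 CPM, and rose by 1.63 log2 units (SE 0.13, adjusted p = 3.38e-06). Both were chosen among genes whose groups do not overlap. Of the 20 adhesion receptors, proteases and protease inhibitors tested, 8 rose and 1 fell, with a list median of 0.15. Smaller rises were those of the hyaluronan receptor Cd44 (log2 change 0.48, adjusted p = 2.49e-05), the plasminogen activator Plau (log2 change 0.45, adjusted p = 0.000883) and the metalloprotease inhibitor Timp1 (log2 change 0.44, adjusted p = 0.00115). Timp3, of the same inhibitor family, was the member that fell (log2 change -0.19, adjusted p = 0.0345). Without TGFB1 and BMP2 replicate 1 or 2 or 3-ligand replicate 1 or 2, 5 members rose and none fell, and 2 fell without 3-ligand replicate 3 and with the replicate block. Mmp14 (log2 change -0.052, SE 0.044, adjusted p = 0.658) and Mmp2 (log2 change -0.053, SE 0.061, adjusted p = 0.763), proteases of collagen and gelatin, did not pass.

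Some genes of the TNF receptor complex rose. Of 20 receptors, adaptors and effectors tested, 4 rose and none fell, with a list median of 0.053. Of all genes tested 3.02% rose and 1.02% fell. With the replicate block 7 members rose and 1 fell, against 7.35% and 4.28% of all genes tested. Birc3, an inhibitor of apoptosis that ubiquitinates Ripk1, had 35.6, 35.8 and 29.5 CPM in the 3-ligand libraries, against 12.2, 14.8 and 11.7 CPM with TGFB1 and BMP2, and rose by 1.32 log2 units (SE 0.099, adjusted p = 1.99e-06). Its paralogue Birc2 had 36.5, 37.9 and 38.9 CPM, against 24.3, 26.1 and 23.8 CPM, and rose by 0.59 log2 units (SE 0.066, adjusted p = 7.35e-05). Every 3-ligand library was above every TGFB1 and BMP2 library for both. Traf3 (log2 change 0.30, adjusted p = 0.00124), which restrains the alternative NF-kB pathway, and Cflar (log2 change 0.25, adjusted p = 0.0146), an inhibitor of caspase 8, completed the rises; Cflar had an adjusted p of 0.0642 to 0.0881 without TGFB1 and BMP2 replicate 1 or 3-ligand replicate 1 or 2. The receptor Tnfrsf1a stood at 146, 142 and 141 CPM, against 159.8, 148 and 145 CPM (log2 change -0.073, SE 0.05, adjusted p = 0.559). The effectors Ripk1 (log2 change 0.064, SE 0.054, adjusted p = 0.657), Casp8 (log2 change 0.042, SE 0.062, adjusted p = 0.819) and Fadd (log2 change -0.0092, SE 0.08, adjusted p = 0.979) did not pass either.

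Of the 11 other TNF superfamily ligands and receptors tested, 2 rose and none fell (4 and none with the replicate block), with a list median of 0.11. Of all genes tested 3.02% rose, and 7.35% with the block. Fas, a death receptor, had 79.0, 91.4 and 74.5 CPM in the 3-ligand libraries, against 39.2, 43.6 and 43.7 CPM with TGFB1 and BMP2, and rose by 0.93 log2 units (SE 0.075, adjusted p = 3.45e-06). Tnfsf18, the ligand of a T cell receptor of this family, had 2.91, 2.89 and 2.81 CPM, against 0.996, 1.63 and 0.952 CPM, and rose by 0.83 log2 units (SE 0.14, adjusted p = 0.00341). Both genes had groups that did not overlap. Tnf itself was not listed for either group. Of 18 apoptosis regulators tested, 2 rose and none fell (3 and none with the replicate block), with a list median of 0.032. These counts stand against the same shares of all genes tested. Bid, which links death receptors to the mitochondria, had 19.9, 20.6 and 19.2 CPM, against 8.59, 9.60 and 9.52 CPM, and rose by 1.03 log2 units (SE 0.082, adjusted p = 3.32e-06). Casp4, an inflammatory caspase, had 36.9, 43.5 and 32.2 CPM, against 19.1, 21.2 and 22.5 CPM, and rose by 0.80 log2 units (SE 0.098, adjusted p = 0.000188).

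**Figure D2:**
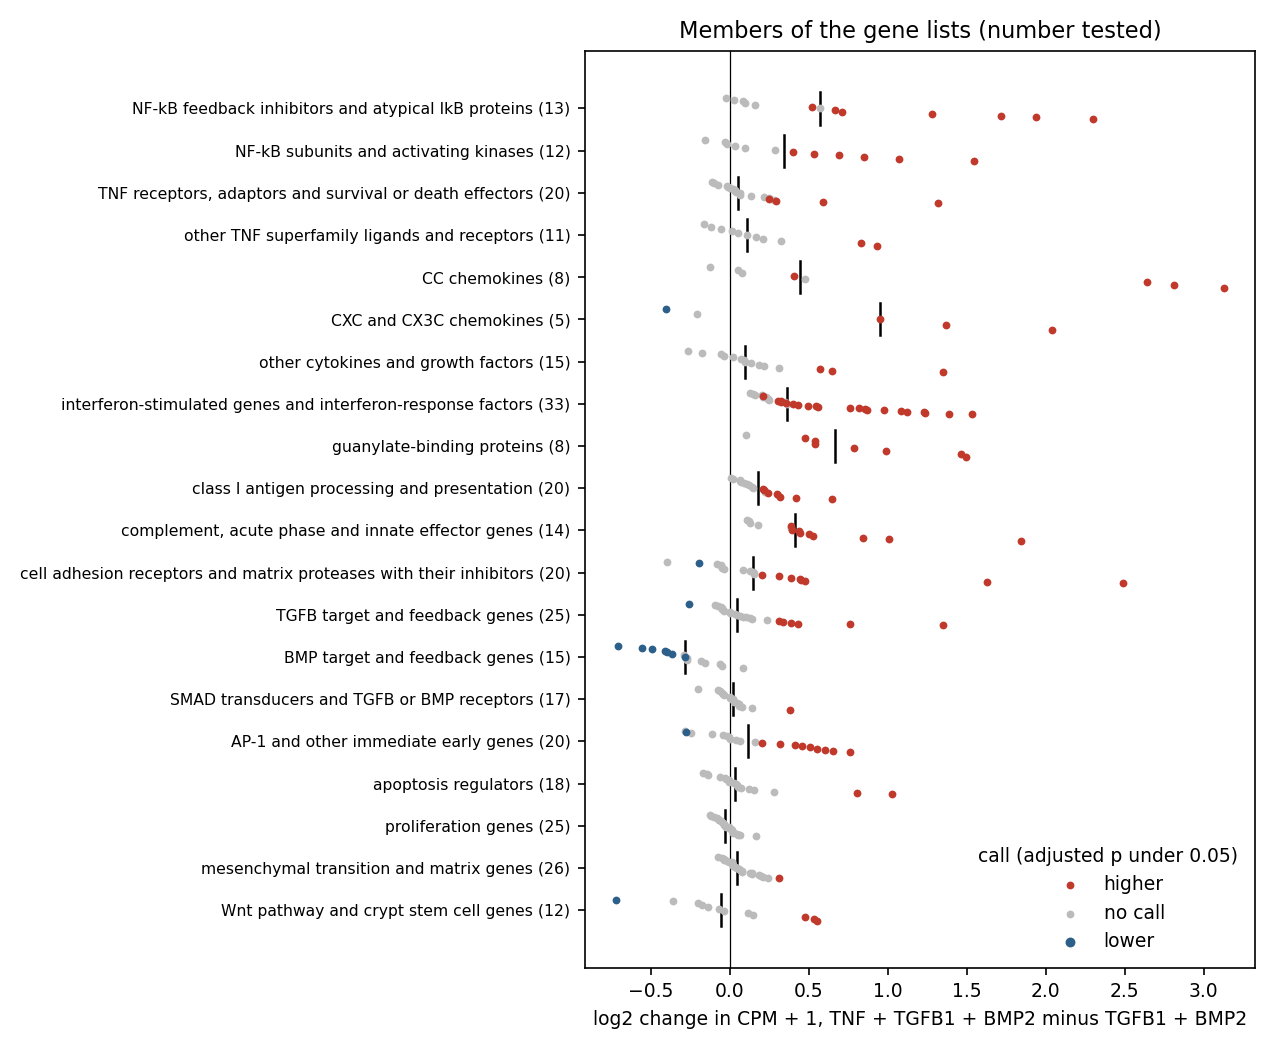
Log2 change in CPM + 1 (3-ligand minus TGFB1 and BMP2) of each tested member of 20 gene lists, with the number tested in parentheses and a black bar at the list median; red members rose, blue members fell and grey members did not pass. The interferon, guanylate-binding protein, antigen presentation and innate effector lists lie wholly to the right of 0, and the BMP target list is the list with the most members that fell (7).

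Most of the interferon-stimulated genes tested rose. Of 33, 21 rose and none fell, and all 33 had a positive change, with a list median of 0.36. Mx2, of the family of Mx GTPases and annotated in GENCODE M21 as a polymorphic pseudogene, had 10.8, 15.1 and 13.4 CPM in the 3-ligand libraries, against 4.22, 3.36 and 3.97 CPM with TGFB1 and BMP2, and rose by 1.53 log2 units (SE 0.12, adjusted p = 3.45e-06). Irf5, an interferon regulatory factor, had 43.0, 44.9 and 38.1 CPM, against 16.7, 13.6 and 15.9 CPM, and rose by 1.39 log2 units (SE 0.087, adjusted p = 3.10e-07). Rsad2, the antiviral enzyme viperin, had 65.3, 87.1 and 72.4 CPM, against 27.0, 31.6 and 34.8 CPM, and rose by 1.24 log2 units (SE 0.10, adjusted p = 4.12e-06). In these 3 genes the groups did not overlap. Ifit3 (log2 change 1.23, adjusted p = 3.28e-05), an RNA-binding antiviral protein, Cmpk2 (log2 change 1.12, adjusted p = 1.44e-05), a nucleotide kinase, and Irf1 (log2 change 0.87, adjusted p = 2.74e-06), a factor that acts on interferon genes, rose as well. Isg15, a ubiquitin-like protein, had 44.6, 59.3 and 45.3 CPM, against 34.0, 31.3 and 35.2 CPM (log2 change 0.55, adjusted p = 0.00346). Stat2 and Irf9, which transduce the signal of interferon receptors, did not pass, with Stat2 at 72.5, 88.9 and 84.4 CPM, against 72.1, 59.1 and 76.7 CPM (log2 change 0.24, SE 0.091, adjusted p = 0.214) and Irf9 at 55.9, 68.0 and 63.1 CPM, against 58.9, 50.1 and 62.0 CPM (log2 change 0.13, SE 0.084, adjusted p = 0.54). With the replicate block Stat2 passed (adjusted p = 0.0376). TGFB1 and BMP2 replicate 1 was the library whose removal left the fewest rises, 16.

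Of the 8 guanylate-binding proteins tested, GTPases induced by interferon that act against intracellular microbes, 7 rose and none fell, with a list median of 0.67. The number that rose was 5 without TGFB1 and BMP2 replicate 1 or 3-ligand replicate 2. Gbp5 had 5.94, 8.59 and 5.53 CPM in the 3-ligand libraries, against 1.67, 1.60 and 1.79 CPM with TGFB1 and BMP2, and rose by 1.5 log2 units (SE 0.14, adjusted p = 2.21e-05). Gbp6 had 15.6, 20.1 and 19.4 CPM, against 5.14, 6.15 and 6.70 CPM, and rose by 1.47 log2 units (SE 0.11, adjusted p = 2.84e-06). Gbp2 had 37.4, 46.9 and 35.3 CPM, against 18.6, 17.9 and 22.1 CPM, and rose by 0.99 log2 units (SE 0.10, adjusted p = 4.13e-05). Their 3-ligand libraries were each above all TGFB1 and BMP2 libraries, and 3-ligand replicate 2 was the highest of its group. Gbp4 (log2 change 0.79, adjusted p = 0.000731), Gbp7 (log2 change 0.54, adjusted p = 0.00546), Gbp3 (log2 change 0.54, adjusted p = 0.0131) and Gbp9 (log2 change 0.47, adjusted p = 0.0101) rose by less, and Gbp8 did not pass (log2 change 0.10, SE 0.16, adjusted p = 0.837). Members of the family are similar in sequence, so reads may be split between them. Of the 7 that rose, 4 had a promoter in the RefSeq table, and all 4 held GAAANNGAAA, the core of the site bound by interferon regulatory factors, searched on both strands. It was present in 7 of the 17 rising interferon genes with an entry (41.2%), in 34 of the 241 rising genes (14.1%), in 4 of the 88 falling genes (4.55%) and in 3.68% of the tested genes with an entry. The promoters of Gbp2 at chr3:142620413-142620712 (plus strand), Gbp5 at chr3:142496684-142496983 (plus strand) and Gbp7 at chr3:142530086-142530385 (plus strand) are shown with these matches, here on the reverse strand, in capitals. The kB consensus is left in lower case here. It was present in 1 of the 4 guanylate-binding protein genes, Gbp5 (ggaaattccc). Among the 17 rising interferon genes with an entry 3 held it (17.6%), against 6.29% of the tested genes with an entry.
Gbp2: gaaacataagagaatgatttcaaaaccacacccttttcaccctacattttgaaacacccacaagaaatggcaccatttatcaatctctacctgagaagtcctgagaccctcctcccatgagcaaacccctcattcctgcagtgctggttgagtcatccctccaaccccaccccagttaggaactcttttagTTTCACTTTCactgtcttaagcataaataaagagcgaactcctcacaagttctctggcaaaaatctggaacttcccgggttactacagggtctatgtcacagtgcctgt
Gbp5: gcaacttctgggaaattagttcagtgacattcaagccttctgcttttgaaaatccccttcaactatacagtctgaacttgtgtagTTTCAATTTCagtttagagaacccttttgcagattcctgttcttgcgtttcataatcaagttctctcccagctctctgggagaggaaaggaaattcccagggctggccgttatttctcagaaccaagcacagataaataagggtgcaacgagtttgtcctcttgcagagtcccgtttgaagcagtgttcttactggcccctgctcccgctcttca
Gbp7: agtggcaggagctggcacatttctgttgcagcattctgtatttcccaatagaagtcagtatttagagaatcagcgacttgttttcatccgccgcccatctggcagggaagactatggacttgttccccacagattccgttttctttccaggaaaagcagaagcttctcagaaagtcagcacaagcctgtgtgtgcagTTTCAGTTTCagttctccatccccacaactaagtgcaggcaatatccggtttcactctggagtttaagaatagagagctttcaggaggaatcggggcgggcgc
The GAAANNGAAA match began 59 bases before the start site of Gbp2, 165 before that of Gbp5 and 53 before that of Gbp7.

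Class I antigen presentation changed little in size. Of 20 genes tested, 7 rose and none fell (11 and none with the replicate block), with a list median of 0.18. Psmb10, a subunit of the immunoproteasome, had 31.4, 29.5 and 28.6 CPM in the 3-ligand libraries, against 16.4, 18 and 21.9 CPM with TGFB1 and BMP2, and rose by 0.65 log2 units (SE 0.094, adjusted p = 0.000837). The class I heavy chain H2-K1 had 922, 948 and 864 CPM, against 788, 778 and 781 CPM, and rose by 0.22 log2 units (SE 0.045, adjusted p = 0.0125). No values of the 2 groups crossed in either gene. The peptide loading genes Tapbpl (log2 change 0.42, adjusted p = 0.0134) and Tapbp (log2 change 0.32, adjusted p = 0.00975), the class I gene H2-Q4 (log2 change 0.30, adjusted p = 0.00362) and the immunoproteasome gene Psmb8 (log2 change 0.24, adjusted p = 0.0353) rose as well. B2m, the light chain, stood at 3536, 3306 and 3647 CPM, against 3407, 3499 and 3515 CPM (log2 change 0.0082, SE 0.05, adjusted p = 0.97), and the peptide transporter subunit Tap1 at 147, 154 and 157 CPM, against 146, 138 and 152 CPM (log2 change 0.069, SE 0.05, adjusted p = 0.585). The number that rose was 2 without 3-ligand replicate 2, 3 without 3-ligand replicate 1 and 4 without TGFB1 and BMP2 replicate 1 or 2. Psmb8 was lost without each of these 4 libraries (adjusted p 0.113 to 0.183) and with plain read totals as the scaling (adjusted p = 0.069), Tapbpl without 3 of them (adjusted p 0.0624 to 0.0768) and Tapbp without 3-ligand replicate 2 (adjusted p 0.0541). Genes of the H2 family share sequence, so their counts may be split. Of 14 complement, acute phase and innate effector genes tested, 9 rose and none fell, with a list median of 0.42. Tlr2, a receptor for bacterial lipoproteins, had 13.5, 15.7 and 12.5 CPM, against 3.47, 3.06 and 2.90 CPM, and rose by 1.84 log2 units (SE 0.11, adjusted p = 1.76e-07). Ptx3, a soluble pattern recognition protein, had 16.1, 15.9 and 21.9 CPM, against 8.48, 7.05 and 9.68 CPM, and rose by 1.01 log2 units (SE 0.13, adjusted p = 0.000284). Saa3, an acute phase protein, had 6.38, 8.62 and 6.76 CPM, against 3.17, 3.21 and 4.40 CPM, and rose by 0.85 log2 units (SE 0.14, adjusted p = 0.00184). In each of the 3 the groups stood apart. The receptor gene Il4ra (log2 change 0.53, adjusted p = 0.00857) and Sod2 (log2 change 0.50, adjusted p = 0.000899), a mitochondrial superoxide dismutase, rose by less. Neurl3, a ubiquitin ligase outside the lists, had 19.9, 22.5 and 18.7 CPM, against 2.43, 2.92 and 3.73 CPM. It rose by 2.41 log2 units (SE 0.12, adjusted p = 3.18e-08), among the 12 largest rises.

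A number of BMP target and feedback genes fell. Of 15 tested, 7 fell and none rose (10 and none with the replicate block), with a list median of -0.28, against -0.0035 for all genes, and 1 of the 15 had a positive change. Id4, an inhibitor of helix-loop-helix factors, had 1.84, 2.52 and 1.62 CPM in the 3-ligand libraries, against 3.75, 4.21 and 3.61 CPM with TGFB1 and BMP2, and fell by 0.71 log2 units (SE 0.14, adjusted p = 0.00799). Id2, of the same family, had 18.3, 19.7 and 16.1 CPM, against 27.9, 30.2 and 22.8 CPM, and fell by 0.55 log2 units (SE 0.10, adjusted p = 0.00578). Atoh8, a helix-loop-helix factor, had 72.9, 64.9 and 57.4 CPM, against 103, 96.0 and 77.5 CPM, and fell by 0.49 log2 units (SE 0.098, adjusted p = 0.00979). In all 3 the 3-ligand libraries lay below the TGFB1 and BMP2 libraries. Smad9, a receptor-activated SMAD of the BMP pathway, had 32.3, 29.5 and 28.1 CPM, against 42.5, 40.3 and 37.3 CPM, and fell by 0.41 log2 units (SE 0.072, adjusted p = 0.00422). In the fit over all 12 colonocyte libraries the adjusted p of Smad9 was 0.092. The factors Gata2 (log2 change -0.40, adjusted p = 0.0192), Zfp503 (log2 change -0.36, adjusted p = 0.0406) and Dlx2 (log2 change -0.28, adjusted p = 0.0465) fell as well. The best known direct targets did not pass, with Id1 at 87.8, 85.9 and 68.5 CPM, against 98.3, 95.3 and 80.8 CPM (log2 change -0.18, SE 0.091, adjusted p = 0.388) and Id3 at 134, 136 and 103 CPM, against 141, 135 and 113 CPM (log2 change -0.064, SE 0.098, adjusted p = 0.83). With the replicate block Id1 had an adjusted p of 0.00476. The number that fell was 3 without TGFB1 and BMP2 replicate 1 and 4 without TGFB1 and BMP2 replicate 2 or 3-ligand replicate 2. Atoh8 was lost without TGFB1 and BMP2 replicate 1 or 2 (adjusted p 0.0533 to 0.0789), and Gata2 without these or 3-ligand replicate 1 or 2 (adjusted p 0.0655 to 0.101). Zfp503 (adjusted p 0.0872 to 0.233) and Dlx2 (adjusted p 0.103 to 0.258) were each lost without any 1 of 4 libraries, TGFB1 and BMP2 replicate 1 and 3-ligand replicate 2 among them. With plain read totals as the scaling, 8 fell.

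**Figure D3:**
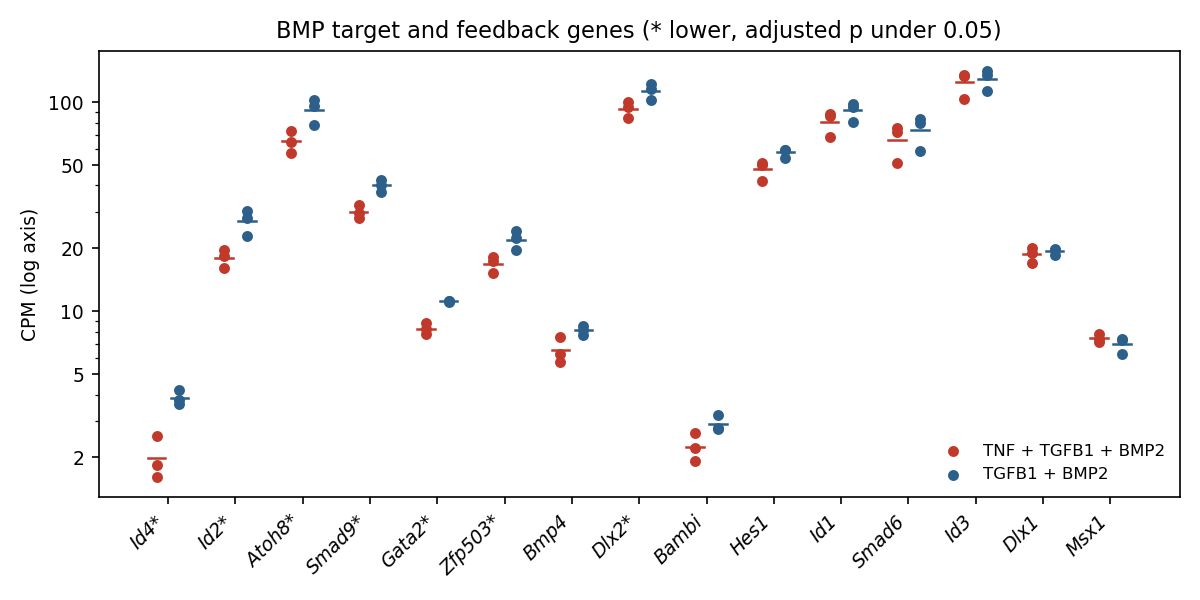
Level in CPM (log axis) of the 15 BMP target and feedback genes tested, in the 3-ligand libraries (red) and the TGFB1 and BMP2 libraries (blue), ordered by log2 change; points are libraries, bars the means of 3, and an asterisk marks the 7 genes that fell. The red points lie below the blue for the genes at the left, and the groups overlap for the last 5, Id1, Smad6, Id3, Dlx1 and Msx1.

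TGFB target genes were called in both directions. Of 25 tested, 6 rose and 1 fell (9 and 1 with the replicate block), with a list median of 0.046. Pdgfb, a growth factor, had 171, 179 and 145 CPM in the 3-ligand libraries, against 69.8, 63.7 and 58.5 CPM with TGFB1 and BMP2, and rose by 1.35 log2 units (SE 0.079, adjusted p = 1.53e-07). Junb, a subunit of AP-1, had 604, 562 and 461 CPM, against 361, 305 and 289.9 CPM, and rose by 0.76 log2 units (SE 0.091, adjusted p = 0.000157). The groups did not overlap in either gene. Pdgfb and Junb are also in the cytokine and immediate early lists, so these rises are shared between lists. Bhlhe40 (log2 change 0.39, adjusted p = 0.00202), a helix-loop-helix repressor, and Ltbp2 (log2 change 0.34, adjusted p = 0.00639), of the family of latent TGFB binding proteins, rose as well. Tgif1 (log2 change 0.43, adjusted p = 0.000372), a repressor of SMAD activity, rose, while Ski (log2 change -0.26, adjusted p = 0.0053), of the same function, fell. Of 17 SMADs and receptors tested, 1 rose and none fell (2 and none with the replicate block). Of all genes tested 3.02% rose, and 7.35% with the block. The riser was Smad3, the TGFB-activated SMAD, with 135, 133 and 121 CPM, against 102, 103 and 94.2 CPM, and it rose by 0.38 log2 units (SE 0.056, adjusted p = 0.000919). Smad4 stood at 123, 117 and 110.1 CPM, against 125, 115 and 118 CPM (log2 change -0.033, SE 0.054, adjusted p = 0.841), with overlapping groups.

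Outside these lists the largest falls were in genes of varied function. Dhrs3, which reduces retinaldehyde, had 11.4, 13.1 and 7.99 CPM in the 3-ligand libraries, against 23.7, 21.5 and 15.1 CPM with TGFB1 and BMP2, and fell by 0.84 log2 units (SE 0.17, adjusted p = 0.00958). Ephb3, a receptor for ephrin B ligands that places cells along the crypt, had 27.3, 26.7 and 25.4 CPM, against 46.1, 43.7 and 43.1 CPM, and fell by 0.72 log2 units (SE 0.062, adjusted p = 6.80e-06). Cmklr1, the chemerin receptor, had 6.85, 6.47 and 6.97 CPM, against 12.6, 10.7 and 11.3 CPM, and fell by 0.69 log2 units (SE 0.094, adjusted p = 0.000539). These were chosen among genes whose groups do not overlap, and replicate 3 was the lowest of both groups for Dhrs3. Gas1, a co-receptor for hedgehog ligands, had 36.5, 37.6 and 26.0 CPM, against 56.6, 51.5 and 41.6 CPM, and fell by 0.58 log2 units (SE 0.13, adjusted p = 0.0199). Zfp395, a zinc finger protein, had 30.6, 28.9 and 25.6 CPM, against 46.2, 43.6 and 37.6 CPM, and fell by 0.56 log2 units (SE 0.085, adjusted p = 0.00112). Cxxc4, an inhibitor of Wnt signalling, had 9.65, 10.6 and 10.1 CPM, against 14.8, 15.1 and 14.2 CPM, and fell by 0.50 log2 units (SE 0.082, adjusted p = 0.00215). These 3 were chosen in the same way. The remaining large falls were those of the semaphorin Sema6d (log2 change -0.62, adjusted p = 0.0336), the poly(A) polymerase Fam46c (log2 change -0.55, adjusted p = 0.0277), the peptidase Lmln (log2 change -0.52, adjusted p = 0.00571) and the potassium channel subunit Kcnab3 (log2 change -0.51, adjusted p = 0.0497). Kcnab3 lost its call without any 1 of the 6 libraries (adjusted p 0.0993 to 0.135) and with a pseudocount of 4 (adjusted p = 0.0704). Dhrs3 (adjusted p 0.0535 to 0.0789) and Gas1 (0.0852 to 0.135) lost theirs without TGFB1 and BMP2 replicate 1 or 2, and in the fit over all 12 libraries (adjusted p = 0.0566 for Dhrs3 and 0.168 for Gas1). Sema6d (0.059 to 0.166) did so without these or 3-ligand replicate 1 or 3, and Fam46c (0.0667 to 0.137) without these or 3-ligand replicate 2 or 3. In bulk samples such as these, fewer cells of a type and less RNA per cell cannot be told apart.

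Of 20 AP-1 and other immediate early genes tested, 9 rose and 1 fell, with a list median of 0.11. The number that rose was 7 or 8 with any single library left out, and 8 with plain read totals as the scaling. Myc, a growth-promoting factor, had 261, 249.6 and 269 CPM in the 3-ligand libraries, against 175, 166 and 190.1 CPM with TGFB1 and BMP2, and rose by 0.55 log2 units (SE 0.054, adjusted p = 2.57e-05). Fosl1, a subunit of AP-1, had 185, 169 and 189 CPM, against 113, 113 and 131 CPM, and rose by 0.60 log2 units (SE 0.064, adjusted p = 5.08e-05). Maff, a small MAF factor, had 40.4, 38.7 and 39.1 CPM, against 24.2, 23.7 and 26.1 CPM, and rose by 0.66 log2 units (SE 0.065, adjusted p = 2.57e-05). The groups of all 3 stood apart. Klf4, a factor of differentiated epithelium, was the member that fell, with 95.4, 85.2 and 93.9 CPM, against 113, 108 and 112 CPM (log2 change -0.28, adjusted p = 0.00848), a call that was lost without TGFB1 and BMP2 replicate 1 or 3-ligand replicate 2 (adjusted p 0.0552 to 0.0636). Atf3 (log2 change 0.51, adjusted p = 0.00598), a stress-induced factor, rose. Of 15 other cytokines and growth factors tested, 3 rose and none fell (5 and 1 with the replicate block, and 5 rose without 3-ligand replicate 3). Besides Pdgfb these were Csf1, the macrophage growth factor, with 1877, 1743 and 1839.7 CPM, against 1163, 1107 and 1213 CPM (log2 change 0.65, adjusted p = 2.11e-06), and Ereg, a ligand of the EGF receptor, with 179, 168 and 189.7 CPM, against 113, 125 and 123 CPM (log2 change 0.57, adjusted p = 2.82e-05). In both the groups were apart.

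Wnt pathway and crypt stem cell genes gave 3 rises and 1 fall among 12 tested (3 and 3 with the replicate block). Lrig1, a stem cell marker that restrains EGF receptors, had 77.4, 76.4 and 70.7 CPM in the 3-ligand libraries, against 55.1, 49.0 and 50.2 CPM with TGFB1 and BMP2, and rose by 0.53 log2 units (SE 0.061, adjusted p = 0.000102); Myc and Cd44 were the other rises and Ephb3 the fall. Without TGFB1 and BMP2 replicate 3, 3 members fell. Proliferation genes showed no change at the threshold, with 0 of 25 called by limma and 4 with an unadjusted p under 0.05, against 1 higher and 3 lower with the replicate block and 1 higher without TGFB1 and BMP2 replicate 3. Their list median was -0.028, and Foxm1, a factor of mitotic genes, stood at 194, 186 and 198 CPM, against 208, 199.9 and 212 CPM (log2 change -0.10, SE 0.046, adjusted p = 0.326). Of all genes tested 3.02% rose and 1.02% fell, and 7.35% and 4.28% did so with the replicate block. An unadjusted p under 0.05 by limma was found for 1677 of the 11479 genes tested. Of 26 mesenchymal transition and matrix genes tested, 1 rose (6 with the replicate block), with a list median of 0.048. This was the fibronectin receptor subunit Itga5, with 418, 421 and 359 CPM, against 339, 327 and 298 CPM (log2 change 0.31, adjusted p = 0.0126), whose adjusted p was 0.0679 to 0.0735 without 3-ligand replicate 1 or 2. Fn1, fibronectin itself, stood at 4335, 4396 and 4643 CPM, against 4107, 4029 and 4059.8 CPM (log2 change 0.13, SE 0.048, adjusted p = 0.185).

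The TNF effect with TGFB1 and BMP2 was then set beside that without them, where 728 of 11586 genes passed (6.28%), 534 higher (4.61%) and 194 lower (1.67%), and 2356 with the replicate block (20.3%). The number was 400 to 443 without TNF replicate 1 or 2 or untreated replicate 1 or 2, and 1217 without untreated replicate 3. Of the 346 rises with TGFB1 and BMP2 that were tested in both comparisons, 294 also rose without them, which is 85.0% of the rises with them and 57.0% of the 516 rises without them. Of the 116 falls, 58 were shared, which is 50.0% of the falls with TGFB1 and BMP2 and 29.9% of the 194 falls without. No gene was called in opposite directions. The rises called with TGFB1 and BMP2 had a median change of 0.45 with them and 0.53 without them, on the log2 scale. The 516 rises called without them had a median of 0.30 with them and 0.44 without them. Choosing a set by its calls tends to enlarge its change in that comparison. Both sets of rises had the larger median without TGFB1 and BMP2. Vcam1 had a change of 2.49 with TGFB1 and BMP2 and 2.37 (adjusted p = 2.46e-07) without. Nfkbia had 1.94 with them and 2.23 (adjusted p = 1.33e-08) without, and the interferon list had medians of 0.36 with them and 0.77 without.

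**Figure D4:**
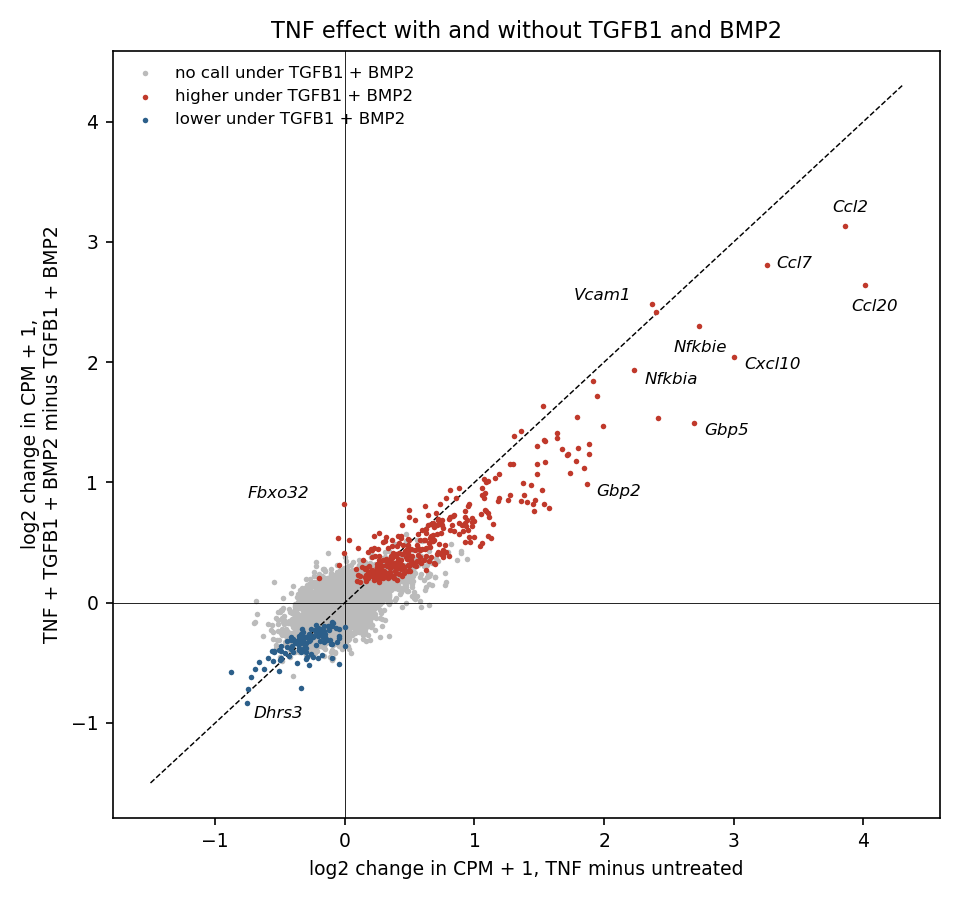
Log2 change in CPM + 1 with TNF under TGFB1 and BMP2 (vertical axis) against that without them (horizontal axis), 1 point per gene tested in both comparisons; red genes rose and blue genes fell under TGFB1 and BMP2, and the dashed line marks equal changes. Ccl20 lies below the line, at 2.64 against 4.01, Vcam1 lies near it, and Fbxo32 lies above it, at 0.82 against a change near 0.

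The difference of the 2 TNF effects was tested as an interaction over all 12 colonocyte libraries. Of 11434 genes, 1 passed (0.00875%), Ccl20, and 356 had an unadjusted p under 0.05. These 356 are a share of the genes below 0.05, so they are no excess of low p-values. That fit had no replicate block, and with the block 30 genes passed, 26 lower and 4 higher, and 711 had an unadjusted p under 0.05. With the 12 libraries scaled together, Ccl20 stood at 9.40, 10.9 and 10.2 CPM with the 3 ligands, 0.624, 0.602 and 1.10 CPM with TGFB1 and BMP2, 58.4, 59.0 and 45.5 CPM with TNF and 2.30, 3.09 and 2.00 CPM untreated. TNF raised it in both settings, and every library with TNF was above every library without it. The change of Ccl20 was 2.64 with TGFB1 and BMP2, against 4.01 without, and the interaction term was -1.34 (SE 0.19, unadjusted p = 3.36e-06, adjusted p = 0.0384) by limma. The size of this difference depends on the pseudocount, since the lowest group lay near 1 CPM: the ratio of mean CPM was 13.1 with TGFB1 and BMP2 and 22 without, and with a pseudocount of 0.25 the term was -0.96 (adjusted p = 0.752). Its adjusted p was below 0.05 in 10 of 21 alternative settings. The single libraries whose removal ended the call were 3-ligand replicates 1 and 3, all 3 replicates with TGFB1 and BMP2, TNF replicates 1 and 2 and untreated replicate 1, with adjusted p from 0.0508 to 0.261.

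Other genes near the top of that ranking did not pass in the fit without a replicate block. With the block in limma, Ccl2 (adjusted p = 8.03e-08), Cxcl10 (adjusted p = 0.00121) and Gbp5 (adjusted p = 0.01) passed. The terms below are from the fit without it. Cxcl10 stood at 103, 128 and 105 CPM with the 3 ligands, 25, 26.1 and 28.3 CPM with TGFB1 and BMP2, 153, 169 and 118 CPM with TNF and 15.1, 17.1 and 19.8 CPM untreated, and its term was -0.96 (SE 0.17, unadjusted p = 2.36e-05, adjusted p = 0.0899). Gbp5 stood at 6.13, 8.85 and 5.68 CPM with the 3 ligands, 1.73, 1.66 and 1.84 CPM with TGFB1 and BMP2, 18.2, 22.1 and 14.2 CPM with TNF and 1.87, 1.57 and 2.45 CPM untreated, with a term of -1.18 (SE 0.23, unadjusted p = 9.33e-05, adjusted p = 0.133). Both showed the higher levels in the libraries with TNF, and the levels without TNF were close to each other for Gbp5. Ccl2 stood at 1132, 1049 and 929 CPM with the 3 ligands, 123, 120.2 and 109 CPM with TGFB1 and BMP2, 1116, 1174 and 956 CPM with TNF and 78.9, 75.0 and 67.1 CPM untreated, with a term of -0.73 (SE 0.11, unadjusted p = 8.97e-06, adjusted p = 0.0513). Its levels with TNF overlapped between the settings, while its levels without TNF were higher with TGFB1 and BMP2. The 8 guanylate-binding proteins had a list median of 0.67 with TGFB1 and BMP2 and 1.35 without, 7 rising in each comparison. Of the BMP targets 7 fell in each comparison, with list medians of -0.28 with TGFB1 and BMP2 and -0.34 without. They were not all the same genes. Id4 (adjusted p = 0.248) and Smad9 (adjusted p = 0.0538) did not pass by limma without TGFB1 and BMP2.

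**Figure D5:**
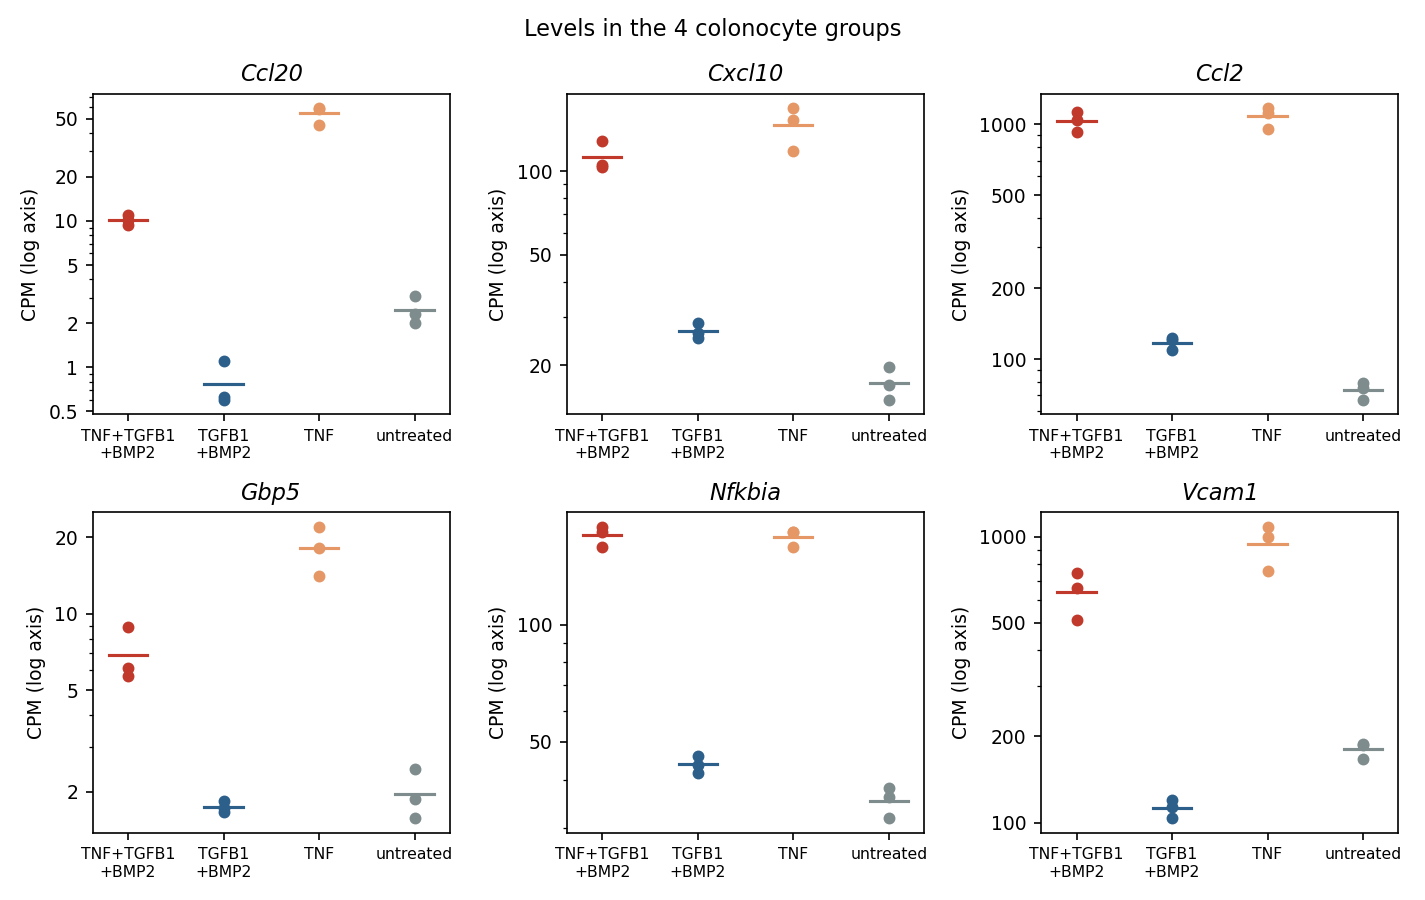
Level in CPM (log axes that differ between panels) of Ccl20, Cxcl10, Ccl2, Gbp5, Nfkbia and Vcam1 in the 4 colonocyte groups, scaled together; points are libraries and bars the means of 3. In every panel the 2 groups with TNF lie above the 2 without, and Ccl20 is lower with TGFB1 and BMP2 than without them both with and without TNF.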

How the data were processed

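Colonocyte RNA was sequenced from TruSeq Stranded mRNA libraries, per the labels' protocols. The authors deposited 1 table per comparison with a signal per library, CPM of an effective library size. The submitters' processing notes name TopHat2 2.1.0, HTSeq 0.5.4p5, edgeR 3.4.2 and mm10; their roles and the strand setting are not stated there, so overlapping genes cannot be told apart. Genes below the authors' filter are not listed. Every value was a whole multiple of 1 read (100% within 0.05), so reads were recomputed and the 6 libraries scaled together by TMM (30% of ratios and 5% of levels trimmed). limma 3.58.1 in R 4.3.3 tested log2(CPM + 1), with a mean-variance trend and two-sided p. Count tests on the recomputed reads were planned and not run. Scripts were tested on simulated data. Same-numbered libraries correlated at 0.215 to 0.430 with TGFB1 and BMP2 (others -0.281 to 0.114). Without TGFB1 and BMP2 they correlated at 0.270 to 0.522 (others -0.383 to 0.220). The numbers were therefore taken to pair the libraries within each comparison. The main fit nevertheless has no block and ignores this pairing. With TGFB1 and BMP2 it called 464 genes, against 1335 with the block. Replicates differed by more than counting noise (chi-square per gene 6.36 to 10.8). Samples were grouped by title. Members, lists and tests were chosen with earlier results of these data known. Named genes are the 12 largest rises and falls with non-overlapping groups, Ccl20, Smad4 and up to 5 called members per list, with other members as needed, chosen after their values were seen.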

Additional observations from a re-analysis of the deposited data

Results flagged for a closer look

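Ccl20 was singled out because its TNF effect differed between the settings by a test of the difference itself, in the fit without a replicate block. Its interaction term was -1.34 (SE 0.19, unadjusted p = 3.36e-06, adjusted p = 0.0384) by limma over 12 libraries. The change was 2.64 with TGFB1 and BMP2, against 4.01 without, and it was positive in both. The adjusted p of the term was below 0.05 in 10 of 21 alternative settings, with a highest of 0.752 at a pseudocount of 0.25. Ccl20 was not alone with the replicate block in limma, where 30 genes passed. Ccl2 (adjusted p = 8.03e-08), Junb (7.69e-06) and Gadd45b (0.00029) then had a lower adjusted p than Ccl20 (0.000768). The change of Junb was 0.76 with TGFB1 and BMP2 and 1.46 without.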

How the results depend on the processing

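The number of genes changed by TNF under TGFB1 and BMP2 lay between 434 and 472 under other pseudocounts (0.25 and 4), filters, scalings, weights and the fit over 12 libraries, was 1335 with the replicate block, and ranged from 281 to 564 when libraries were left out. Without TGFB1 and BMP2 the 728 genes became 2356 with the replicate block and 400 to 2327 with libraries left out; plain read totals gave 442 higher and 296 lower. The weights and the removal of replicate 3 everywhere were added after seeing the data. The interaction called 0 genes with a pseudocount of 0.25, with a mean of at least 5 CPM and with weights, 2 with read totals, 30 with the replicate block (26 lower and 4 higher, with Ccl2 at adjusted p = 8.03e-08, Cxcl10 at 0.00121, Gbp5 at 0.01 and Fbxo32 at 0.00621) and 0 to 18 with libraries left out. For the interaction, 17 of 18 same-numbered pairs correlated above 0.1, while pairs of unlike number correlated at -0.386 to 0.242. Some of the latter were the higher: 3-ligand replicate 1 correlated at 0.218 with TNF replicate 2 and at 0.172 with TNF replicate 1. The lowest same-numbered pair, TGFB1 and BMP2 replicate 2 with untreated replicate 2, correlated at 0.049. There the numbers were not taken to pair the libraries, although they were within each of the TNF comparisons that the interaction sets against each other. Of 82 named genes, 65 kept their call and direction under every setting. Smad4, never called, ranged from -0.070 to 0.011 with single libraries left out, and was positive without TGFB1 and BMP2 replicate 1 (0.00037), 3-ligand replicate 3 (0.011) and replicate 3 (0.0026). The planned count tests were not run. Genes under about 1 CPM are limited by depth and by the authors' filter. The causes were not tested.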

Other observations

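Further genes outside the lists changed with TNF under TGFB1 and BMP2, named here after their values were seen. Fbxo32, a muscle-known ubiquitin ligase subunit, stood at 11.8, 13.7 and 10.7 CPM with the 3 ligands, 6.17, 6.97 and 5.91 CPM with TGFB1 and BMP2, 3.87, 4.60 and 4.09 CPM with TNF and 3.72, 4.69 and 4.23 CPM untreated. It rose by 0.82 with TGFB1 and BMP2 (adjusted p = 0.000331), against -0.0048 (adjusted p = 0.988) without, and the interaction term of 0.83 (SE 0.16, unadjusted p = 6.68e-05, adjusted p = 0.133) did not pass in the fit without a replicate block. Socs1, a feedback inhibitor of cytokine receptors, had 3.93, 3.18 and 4.42 CPM, against 2.18, 1.41 and 1.67 CPM (log2 change 0.82, adjusted p = 0.00408). Cd274, the checkpoint ligand PD-L1, had 15.8, 18.9 and 16.1 CPM, against 9.24, 8.02 and 9.05 CPM (log2 change 0.87, adjusted p = 5.72e-05). Fgf7, an epithelial growth factor, had 8.95, 9.07 and 9.06 CPM, against 4.45, 4.89 and 5.47 CPM (log2 change 0.76, adjusted p = 0.000412). The groups did not overlap in any of these 4 genes.

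Of the genes listed with the 3-ligand libraries, 71 were not listed with the TGFB1 and BMP2 libraries and so had no test. The authors listed genes for the 3-ligand and TNF libraries together, and for the TGFB1 and BMP2 and untreated libraries together. A gene can thus be listed through its level with TNF, as Kcna4 (mean 0.30 CPM with the 3 ligands and 1.49 CPM with TNF). Being listed on 1 side only is therefore not a measured TNF effect. Among them were Il6, an inflammatory cytokine, at 2.21, 3.49 and 1.83 CPM, Csf2, a myeloid growth factor, at 1.98, 2.38 and 1.40 CPM, and Nod2, a sensor of bacterial peptides, at 4.52, 3.4 and 2.42 CPM. Conversely 126 genes were listed only with TGFB1 and BMP2.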
